A study of Mus musculus with 6 samples.

Results

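The genes described here encode parts of motile cilia. They were taken from the count table by symbol: every gene named Dnah, Dnai, Rsph, Cfap or Tekt followed by a digit, and *Foxj1*, *Ccdc153*, *Tmem212*, *Sntn*, *Mia*, *Calml4*, *Fam183b* and *Cdhr4*. This gave 70 of 32285 genes, of which 16 are Dnah, 8 Rsph, 33 Cfap and 5 Tekt genes and 8 were named one by one. No symbol of the table matched Dnai. The rule reads symbols only, but it was chosen with earlier results of these data known.

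The cells came from the striatum of male wild-type C57BL/6 mice, enriched for astrocytes by magnetic sorting for ACSA2, an antigen on their surface. Each preparation pooled several animals, and the dissection left out the subventricular zone next to the ventricle. Libraries came from mice at postnatal day 3 (P3, 3 libraries) or at an age of 3 months (3m, 3 libraries), made with 10x Chromium 3′ chemistry, and the comparison of the ages asks how astrocytes change as they mature. UMIs (unique molecular identifiers) count captured transcript ends, so levels are given as UMIs per 1000000 UMIs in the same sum (CPM) and do not scale with gene length.

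Motile cilia beat and move fluid. Their core, the axoneme, is a ring of microtubule doublets bent by dynein arms, whose heavy chains are the Dnah proteins. Radial spokes (Rsph proteins) link the ring to the central pair, tektins lie inside the doublets, and many Cfap proteins dock or regulate these parts. In the brain such cilia are carried in tufts by ependymal cells, which line the ventricles and form around birth. *Gmnc* and *Mcidas* start this fate, many centrioles are then made on deuterosomes that contain *Deup1*, and FOXJ1 and RFX factors switch on the axoneme genes.

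RFX factors bind the X-box, and its letters are shown first because, of the 4 motifs searched, its core was the one found in most promoters of these genes. Windows from 250 bases before to 50 bases after the start, from RefSeq on GRCm38.p6, were matched for 57 of the 70 genes (64 windows). Its core GTTGCC, read on both strands, stood in 24 of the 64 windows (37.5%), against 12.5% of all 32851 windows. The full pair, GTTNCC and GGNAAC with at most 3 bases between them, stood in 2 windows (3.12%, against 0.804% of all) and can contain the core. The forkhead letters TGTTTAC stood in 5 windows (7.81% against 3.65%) and TGTTTGC in 6 (9.38% against 5.07%). These shares are descriptions, and base composition was not matched. No window was matched for *Foxj1*, *Rsph1*, *Rsph4a*, *Rsph10b*, *Cfap53*, *Cfap54*, *Cfap65*, *Cfap73*, *Cfap97*, *Cfap157*, *Cfap299*, *Dnah3* or *Dnah2os*.

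Stretches of 60 bases that end at or before the start are given for 6 genes, 5′ to 3′ on the strand of the gene, with the X-box letters in capitals. The first 2 hold the full pair and the others the core. *Fam183b* is at chr11:58801961-58802020 (minus strand, letters from 16 bases before the start), *Cfap298* at chr16:90935001-90935060 (minus, 188 bases before), *Tekt1* at chr11:72361885-72361944 (minus, from 35 bases before), *Cfap161* at chr7:83794873-83794932 (minus, from 66 bases before), *Ccdc153* at chr9:44240498-44240557 (plus, 152 bases before) and *Sntn* at chr14:13670783-13670842 (plus, 66 bases before).
Fam183b: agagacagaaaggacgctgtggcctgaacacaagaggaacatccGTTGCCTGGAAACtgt
Cfap298: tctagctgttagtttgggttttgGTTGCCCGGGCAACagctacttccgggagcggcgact
Tekt1: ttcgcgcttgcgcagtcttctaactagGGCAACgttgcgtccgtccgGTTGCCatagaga
Cfap161: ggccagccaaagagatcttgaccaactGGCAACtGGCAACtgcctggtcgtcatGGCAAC
Ccdc153: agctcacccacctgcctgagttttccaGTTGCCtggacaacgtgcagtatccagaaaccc
Sntn: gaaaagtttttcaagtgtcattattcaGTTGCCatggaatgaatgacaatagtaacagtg

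Total UMIs lay between 32193875 and 37795021 per P3 library and between 5471573 and 10522151 per 3m library. Cells were grouped by the authors' clusters (AST astroglia, GPC glial progenitors, ODC oligodendrocytes, OPC their precursors, MIC microglia, END endothelial cells, PER pericytes, NEU neurons, and LOW for clusters they left unidentified). Clusters were made from these same genes, so differences between clusters are descriptions and were not tested. The libraries were not alike in the cells that matter here. AST_P3_19 had 11, 35 and 50 cells in P3 replicates 1, 2 and 3 and none at 3m. LOW_23 had 45 cells, 27 of them in P3 replicate 2 and 14 in 3m replicate 2, with 1 in P3 replicate 1, 3 in P3 replicate 3 and none in the other 3m libraries. Of 16653 distinct barcodes 37 occurred in more than 1 library, and 1 of these was of a cell in AST_P3_19 or LOW_23.

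AST_P3_19 and LOW_23 stood far above all other clusters in these genes, and they were not alike. The 70 genes together made up 8263, 7261 and 8774 CPM in AST_P3_19 (P3 replicates 1, 2 and 3), and 23790 CPM in LOW_23 in P3 replicate 2 and 21984 CPM in 3m replicate 2. In the 52 cells of AST_P3_1 that the authors' astroglial sub-cluster 15 held beside 93 of the 96 cells of AST_P3_19, they made up 4381 CPM. The rest of AST_P3_1 had 1825 CPM, the other P3 astroglia 514 CPM and the 3m astroglia 402 CPM. Clusters of other cell types lay between 86.6 CPM (LOW_20, P3) and 527 CPM (NEU_22, P3).

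**Figure D1:**
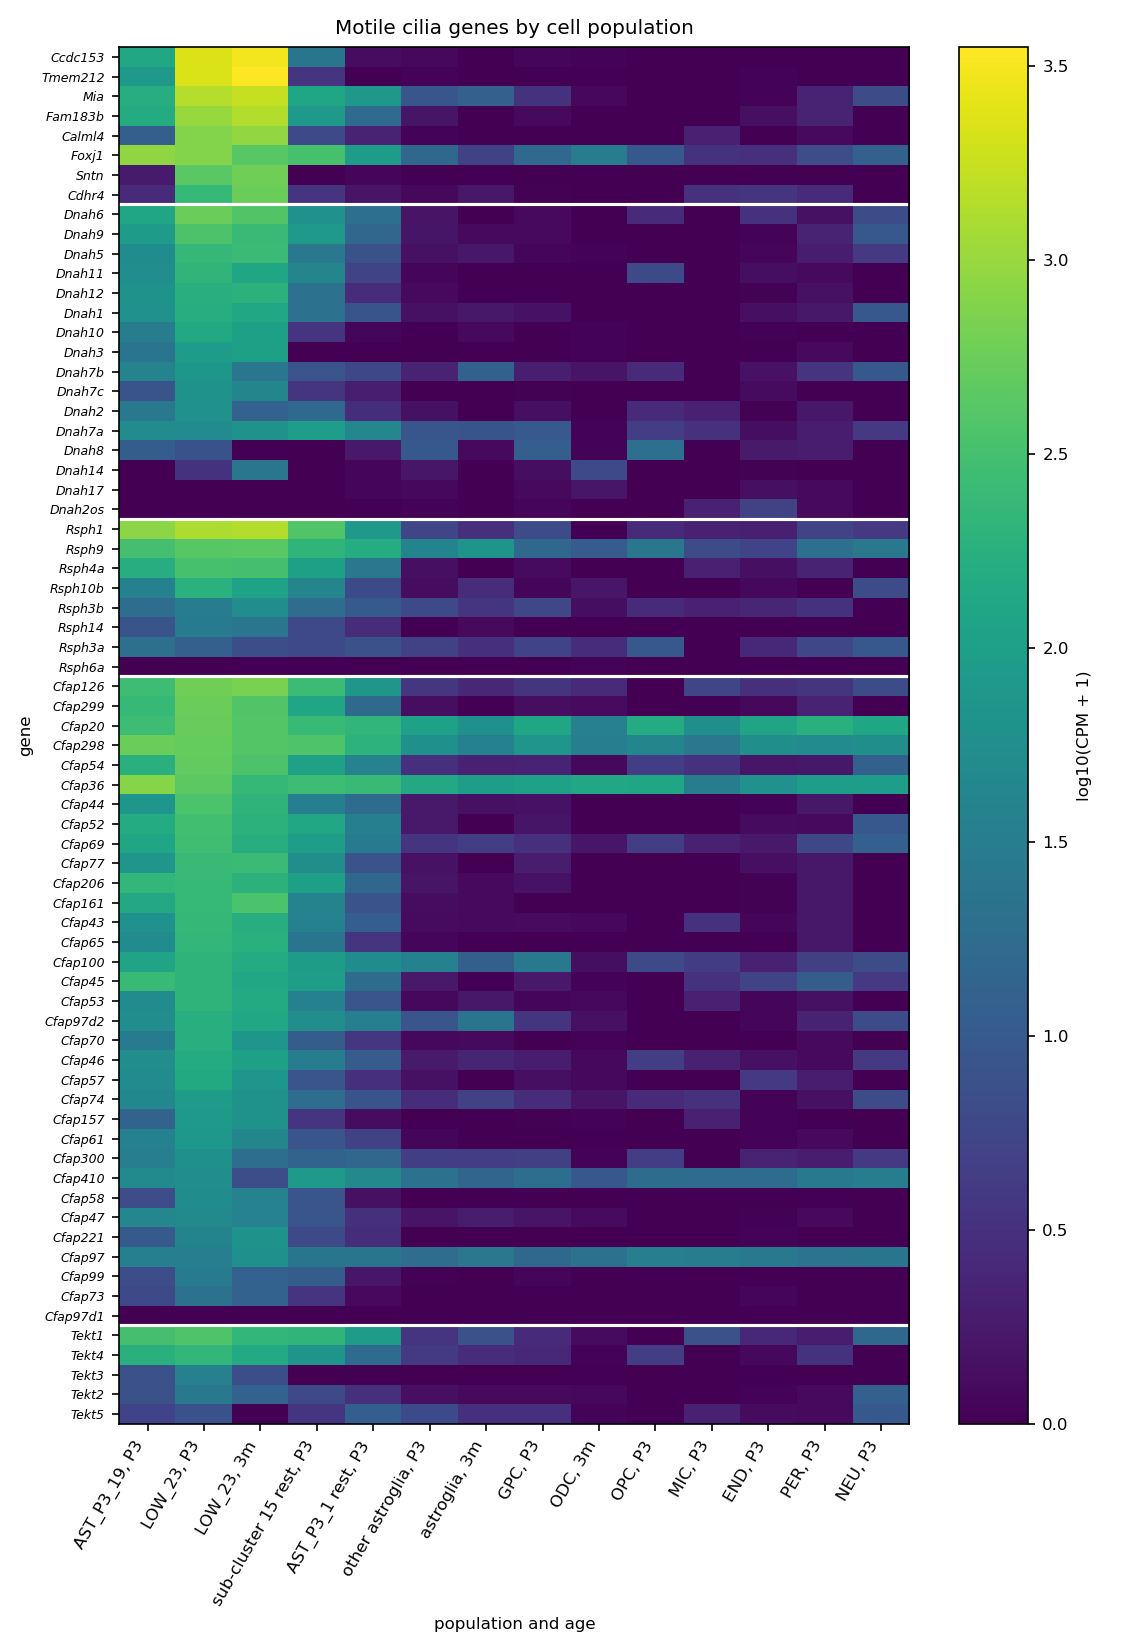
Level of each of the 70 genes, as log10(CPM + 1), in 14 populations (columns; cells of all libraries of an age summed), with genes grouped as named one by one, Dnah, Rsph, Cfap and Tekt from top to bottom and ordered within a group by LOW_23 at P3. Most rows are bright in the first 3 columns, fade through sub-cluster 15 and AST_P3_1, and are near 0 elsewhere, except *Cfap20*, *Cfap36*, *Cfap97*, *Cfap298* and *Cfap410*, which are seen in every column.

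The cluster names were set against marker genes. All 8 multiciliated markers, of which *Foxj1*, *Ccdc153* and *Tmem212* are themselves among the 70 genes, were detected in both clusters, at 2836, 2403 and 3029 CPM in sum in AST_P3_19 (P3 replicates 1, 2 and 3) and at 12566 and 12674 CPM in LOW_23 (P3 and 3m, replicate 2 of each). *Rarres2*, one of these markers, was at 532 ± 86.7 CPM (SD, n = 3) in AST_P3_19 and at 4124 CPM and 4411 CPM in LOW_23. AST_P3_19, which the authors named as astroglial, had the astrocyte glutamate transporter *Slc1a3* at 901 ± 107 CPM, against 2037 ± 145 CPM in the other P3 astroglia. LOW_23 had *Slc1a3* at 214 and 241 CPM. *S100b*, a calcium-binding protein of astrocytes and ependymal cells, was at 10.9 ± 10.5 CPM in AST_P3_19 and at 423 and 445 CPM in LOW_23. The other astrocyte markers were mixed within P3 replicate 2. *Sox9* was at 566 CPM in AST_P3_19 and 907 CPM in LOW_23, *Gja1* at 341 and 303 CPM and *Aqp4* at 83.6 and 91.9 CPM. *Aldh1l1*, *Aldoc*, *Gfap* and *Slc1a2* were at 100, 355, 85.7 and 389 CPM in AST_P3_19 and lower in LOW_23, at 33.7, 126, 9.19 and 107 CPM. Of 6 choroid plexus markers 3 were detected in LOW_23, at 248 and 319 CPM in sum (*Folr1*, *Clic6* and *Otx2*), while *Ttr*, *Kcne2* and *Kl*, the others, had no UMI there. Microglial and endothelial markers had no UMI in LOW_23, and endothelial markers were at 0, 0 and 81.4 CPM in the libraries of AST_P3_19. Of the mural markers *Rgs5*, *Vtn*, *Mcam* and *Pdgfrb* were at 55.2, 36.8, 9.19 and 3.06 CPM in LOW_23 of P3 replicate 2. In AST_P3_19 of that library they were at 0, 2.09, 0 and 16.7 CPM. *Des* had no UMI in either, and no mural marker had a UMI in LOW_23 at 3m. Oligodendrocyte markers summed to 518 CPM in LOW_23 at 3m and 1207 CPM in the 3m astroglia.

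The genes named one by one separated the 2 clusters most. *Ccdc153*, a coiled-coil protein of motile cilia, was at 104, 132 and 141 CPM in AST_P3_19 and at 2699 CPM (95% counting interval 2524 to 2884) in LOW_23 of P3 replicate 2. *Tmem212*, a membrane protein used as an ependymal marker, was at 7.42, 89.9 and 89.9 CPM against 2629 CPM (2456 to 2811). *Calml4*, a calmodulin-like protein, was at 0, 14.6 and 10.2 CPM against 977 CPM (873 to 1091). In each case even the highest of the 3 values in AST_P3_19 was far under the interval of LOW_23. Intervals here cover counting error only.

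*Sntn*, which encodes sentan of the ciliary tip, had 0, 0 and 1.70 CPM in AST_P3_19 and 466 CPM (395 to 546) in LOW_23. *Cdhr4*, a cadherin-related protein, had 0, 0 and 3.39 CPM against 303 CPM (247 to 369). These 2 genes were thus nearly absent from AST_P3_19, with UMIs in 1.04% and 2.08% of its cells and in 74.2% and 87.1% of the P3 cells of LOW_23. *Mia* was at 215, 119 and 188 CPM against 1719 CPM, and *Fam183b* at 230, 144 and 144 CPM against 1057 CPM. Exons of *Mia* share 410 bases with the read-through gene *Gm21983* on the same strand, and exons of *Cdhr4* share 570 and 889 bases with *Gm20661* and *Gm20662*, so the counts of both are uncertain to that extent.

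*Foxj1*, the transcription factor that activates the programme, differed much less. It was at 809, 713 and 1116 CPM in AST_P3_19 (879 ± 211). In LOW_23 of P3 replicate 2 it was at 843 CPM (746 to 948), within the range of AST_P3_19 over the libraries. Within P3 replicate 2 alone the ratio of LOW_23 to AST_P3_19 was 1.18 (counting interval 1.01 to 1.39). It was detected in 99.0% of the cells of AST_P3_19 and in 96.8% of the P3 cells of LOW_23. In LOW_23 of 3m replicate 2 it was at 421 CPM (328 to 532).

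Among the dynein heavy chains, 13 of 16 had a UMI in AST_P3_19 and 14 in LOW_23 at P3, and their sum was 629 and 2174 CPM. *Dnah6*, an inner arm heavy chain, led in AST_P3_19 with 141, 119 and 122 CPM and was at 619 CPM (537 to 710) in LOW_23 of P3 replicate 2. *Dnah9*, an outer arm heavy chain, was at 126, 73.1 and 91.6 CPM against 423 CPM (355 to 500). *Dnah12* was at 72.9 ± 31.1 CPM against 169 CPM. *Dnah7a* was at 63.1 ± 35.5 CPM in AST_P3_19 and 49.0 CPM (28.0 to 79.6) in LOW_23 and did not separate them. *Dnah7a*, *Dnah7b* and *Dnah7c* are close copies, and how reads were shared among them is uncertain.

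Of the radial spoke genes 7 of 8 were detected in each cluster. *Rsph1*, of the spoke head, was at 884, 786 and 895 CPM in AST_P3_19 and 1275 CPM (1155 to 1403) in LOW_23, a smaller gap than for most of the others. *Rsph4a*, also of the spoke head, was at 182 ± 57.0 CPM against 343 CPM (283 to 413). *Rsph9* was at 324 ± 12.8 CPM against 426 CPM, and *Rsph10b* at 28.0 ± 17.8 CPM against 208 CPM.

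In the largest family 32 of 33 Cfap genes were detected in each cluster. *Cfap36* was the leading one in AST_P3_19, at 817, 708 and 846 CPM, and the only member whose counting interval put it lower in LOW_23 (447 CPM, 378 to 526) within P3 replicate 2. *Cfap298*, needed to assemble dynein arms, was at 549 ± 81.2 CPM and 536 CPM. *Cfap126* was at 301 ± 67.1 CPM against 659 CPM (574 to 753). *Cfap45*, a protein inside the doublets, was at 290, 217 and 275 CPM against 162 CPM (122 to 212), and its ratio within P3 replicate 2, 0.747 (0.526 to 1.05), included 1.

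Of the tektins *Tekt1* was at 230, 307 and 341 CPM in AST_P3_19 and 392 CPM (327 to 466) in LOW_23, and *Tekt4* at 177 ± 21.7 CPM and 236 CPM. *Tekt2* and *Tekt3* were low in both, at 7.22 ± 5.42 and 6.69 ± 2.24 CPM in AST_P3_19 and 27.6 CPM each in LOW_23. *Tekt5* was at 4.87 ± 2.67 CPM in AST_P3_19, no higher than in the rest of AST_P3_1 (9.63 ± 1.97 CPM).

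The 5 members without a UMI in AST_P3_19 were *Dnah14*, *Dnah17*, *Dnah2os*, *Rsph6a* and *Cfap97d1*. *Dnah2os* is an antisense gene to *Dnah2* that the symbol rule took in, and it was not detected in LOW_23 either. *Rsph6a*, *Cfap97d1* and *Dnah17* also had no UMI in LOW_23.

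Within P3 replicate 2, the library that held enough cells of both clusters, 62 of the 70 genes had a higher level in LOW_23 (27 cells) than in AST_P3_19 (35 cells) and 4 a lower one. The median ratio over the 62 genes detected in both was 3.26, against 1.04 over all 11414 genes detected in both. For 47 members the counting interval of the ratio lay above 1, and for 1 (*Cfap36*) below. Such intervals were not computed over all genes, so no share stands beside these counts. The largest ratios were those of *Calml4* (66.8, interval 32.1 to 168), *Tmem212* (29.3, 21.5 to 40.7) and *Ccdc153* (20.5, 15.9 to 26.9).

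Of 23 genes that act in multiciliogenesis 14 were lower in LOW_23 and 9 higher, with intervals of 9 below 1 and of 2 above and a median ratio of 0.844. Over all genes 7383 were lower and 7338 higher, with the median ratio of 1.04 given above. The median of the list was thus near the rest, while the intervals of 9 and 2 of its 23 genes excluded 1. *Mcidas*, the regulator of the multiciliated fate, was at 81.7, 77.3 and 120 CPM in AST_P3_19 and had no UMI in LOW_23 at either age. *Ccno*, a cyclin needed for centriole amplification, was at 111, 146 and 173 CPM against 6.13 CPM (0.742 to 22.1). *Deup1*, of the deuterosome, was at 639, 403 and 592 CPM against 33.7 CPM (16.8 to 60.3). These 3 genes were thus read mainly in the cluster where *Sntn* and *Cdhr4* were not.

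*Myb*, a transcription factor of the same step, was at 421 ± 131 CPM in AST_P3_19 and 159 CPM (119 to 209) in LOW_23. *Plk4*, the kinase that starts centriole duplication, was at 89.9 ± 19.2 CPM against 3.06 CPM, and its partner *Stil* at 43.9 ± 29.9 CPM against 3.06 CPM. *Cdc20b*, a gene of the deuterosome stage, was at 21.8 ± 6.01 CPM and *Foxn4* at 21.5 ± 4.41 CPM, and neither had a UMI in LOW_23 of P3 replicate 2. *Gmnc* was at 31.5 ± 18.7 CPM against 12.3 CPM (3.34 to 31.4). Markers of cycling cells (*Mki67*, *Top2a* and *Cdk1*) summed to 497, 318 and 656 CPM in AST_P3_19, to 15.3 CPM in LOW_23 of P3 replicate 2 and to 447 CPM in the other P3 astroglia, and their part in the centriole genes was not tested.

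The regulators of the X-box were less different. *Rfx3* was at 98.2 ± 37.1 CPM in AST_P3_19 and 153 CPM (114 to 202) in LOW_23, *Rfx2* at 45.8 ± 7.59 CPM and 88.9 CPM (59.5 to 128), and *Rfx1* at 22.2 ± 8.40 and 24.5 CPM. *Rfx4*, which is broad in astroglia, was at 64.2 ± 8.85 CPM in AST_P3_19 and 137 ± 9.49 CPM in the other P3 astroglia. *Trp73* was at 24.4 ± 8.57 CPM against 52.1 CPM (30.3 to 83.4). *E2f5*, a cofactor of *Mcidas*, was at 85.5 ± 20.9 CPM in AST_P3_19 and 89.9 ± 2.99 CPM in the other P3 astroglia, and at 30.6 CPM (14.7 to 56.3) in LOW_23, while *E2f4* was at 31.4 ± 9.21 CPM and 27.6 CPM.

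**Figure D2:**
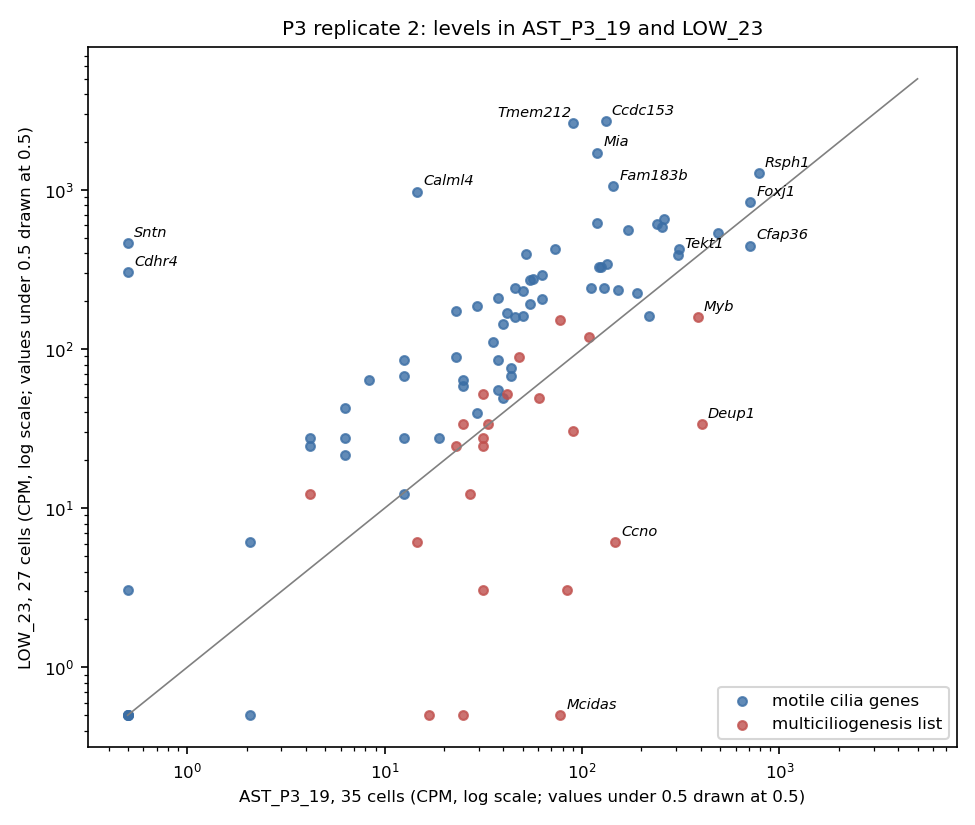
Levels in P3 replicate 2 (CPM, both axes on a log scale) in AST_P3_19 (x, 35 cells) and LOW_23 (y, 27 cells), 1 point per gene, for the motile cilia genes (blue) and the genes of the multiciliogenesis list (red), with a line at equal levels. Blue points lie mostly above the line, with *Sntn*, *Cdhr4* and *Calml4* farthest from it, and *Mcidas*, *Ccno* and *Deup1* lie well below it.

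Other ciliary genes followed the axoneme side. Of 36 axoneme genes outside the symbol rule 35 were higher in LOW_23 (median ratio 2.08), for example the dynein light chain *Dynlrb2* at 1188 ± 205 CPM in AST_P3_19 and 2301 CPM in LOW_23, and *Meig1* at 770 ± 51.8 and 1330 CPM. *Enkur* was at 471 ± 41.9 and 781 CPM, and the centrin *Cetn2* at 663 ± 128 and 732 CPM. Of 13 genes for dynein assembly 10 were higher (median ratio 1.71), and *Zmynd10* was at 213 ± 69.0 and 316 CPM. *Pih1d1* was lower, at 113 ± 35.1 and 21.4 CPM, *Pih1d2* was at 95.9 ± 12.6 and 236 CPM, and *Rpap3* at 116 ± 65.9 and 156 CPM. Of 25 genes for intraflagellar transport, the traffic that also builds immotile cilia, 19 were higher with a median ratio of 1.32. There *Ift22* was lower, at 574 ± 46.3 and 169 CPM, and *Ift20*, *Ift74* and *Ift43* were at 523 ± 110, 385 ± 50.8 and 360 ± 116 CPM in AST_P3_19 and 515, 420 and 435 CPM in LOW_23.

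The 14 cells of LOW_23 at 3m were all from 1 library, so the ages could not be compared in this cluster over replicates. Between replicate 2 of each age 48 of the 70 genes had a lower level at 3m and 17 a higher one. Over all genes 8535 were lower and 5146 higher, so most genes went the same way. The median ratio was 0.659 for the members (n = 64), against 0.982 over the 10146 genes detected in both. Counting intervals of 23 member ratios lay below 1 and of 5 above, and such intervals were not computed over all genes. The 5 were *Ccdc153*, *Tmem212*, *Fam183b*, *Sntn* and *Cdhr4*. Side by side in replicate 2 of each age, *Ccdc153* was at 2699 and 3081 CPM (P3, then 3m), *Tmem212* at 2629 and 3533 CPM, *Mia* at 1719 and 1697 CPM, *Calml4* at 977 and 933 CPM and *Sntn* at 466 and 608 CPM. *Cdhr4* was at 303 and 566 CPM, and *Fam183b* at 1057 and 1378 CPM. *Cfap36*, *Foxj1* and *Dnah9* had lower values at 3m, 229, 421 and 247 CPM, against 447, 843 and 423 CPM at P3.

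The genes were also read outside both clusters, in a graded way. For a count per cell, 15 scoring genes were used (*Ccdc153*, *Tmem212*, *Fam183b*, *Cdhr4*, *Sntn*, *Foxj1*, *Rsph1*, *Rsph4a*, *Tekt1*, *Tekt4*, *Cfap52*, *Cfap126*, *Cfap45*, *Dnah6* and *Dnah12*), and a barcode was said to carry them when at least 4 had a UMI. All 96 cells of AST_P3_19 and all 45 of LOW_23 did, with medians of 10 scoring genes in AST_P3_19 and of 14 (P3) and 15 (3m) in LOW_23. Of the 52 AST_P3_1 cells in sub-cluster 15, 51 did (median 6). In the rest of AST_P3_1 305 of 1419 cells did (21.5%, median 2), and in all other P3 astroglia 24 of 7307 (0.328%).

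Cells that should lack these genes set the background. At P3, 2 of 1294 endothelial cells (0.155%, median 3702.5 UMIs) and 1 of 124 microglia (0.806%, median 6223 UMIs) carried them, against a median of 6285 UMIs in the rest of AST_P3_1 and 7774 UMIs in the other P3 astroglia. The share in the other P3 astroglia thus lay between those of endothelial cells and microglia, and that in AST_P3_1 was above both. At 3m no astroglial cell outside AST_P3_1 did, 0 of 1116 (median 3631 UMIs), which allows a share of up to 0.269%. With every barcode thinned to 2000 UMIs, 61 of 95 cells of AST_P3_19 carried the genes (64.2%), 31 of 31 P3 cells of LOW_23, 13 of 52 in sub-cluster 15 outside AST_P3_19 and 22 of 1412 in the rest of AST_P3_1 (1.56%), while 0 of 757 endothelial cells did. Thinning lowered the shares in AST_P3_19, the rest of sub-cluster 15 and the rest of AST_P3_1, and not in LOW_23.

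**Figure D3:**
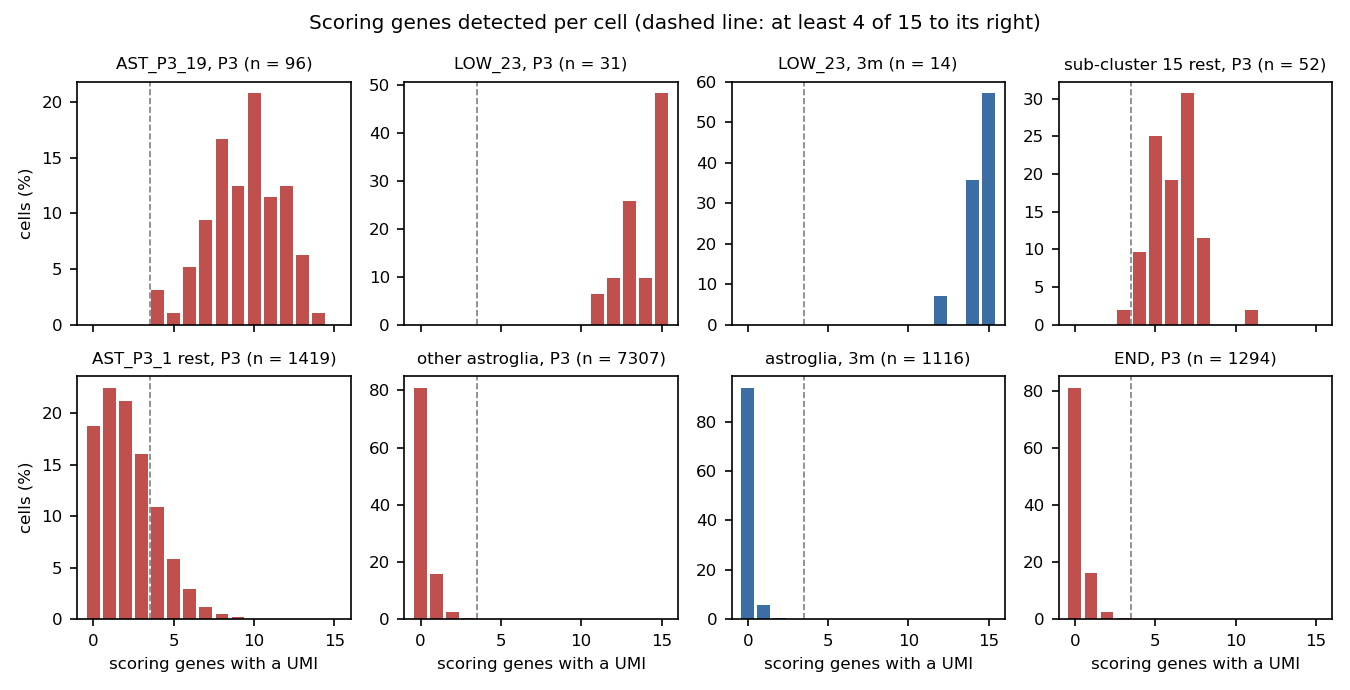
Share of cells (%) by number of the 15 scoring genes with a UMI in 8 populations (P3 red, 3m blue), with a dashed line at the limit of 4 genes. The distributions move from 11 to 15 genes in LOW_23, over a median of 10 in AST_P3_19, 6 in the rest of sub-cluster 15 and 2 in the rest of AST_P3_1, to mostly 0 in other astroglia and endothelial cells.

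By library, 46 of 2607, 240 of 3771 and 231 of 5582 barcodes carried the scoring genes in P3 replicates 1, 2 and 3, and 0 of 1653, 16 of 1769 and 0 of 1308 in 3m replicates 1, 2 and 3. Carriers at 3m were thus seen in 1 library, 14 of them in LOW_23 and 2 among barcodes that the filter on cells had left out.

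In AST_P3_1 the axoneme genes were present at a fraction of the level in AST_P3_19. Outside sub-cluster 15, *Foxj1* was at 84.8 ± 17.4 CPM (SD, n = 3), *Cfap126* at 82.8 ± 18.1, *Mia* at 88.0 ± 23.2, *Tekt1* at 80.2 ± 15.1, *Rsph1* at 74.6 ± 12.2 and *Cfap52* at 33.2 ± 4.29 CPM, each above its level in the other P3 astroglia (14.5 ± 5.16, 2.69 ± 1.05, 8.07 ± 1.98, 2.58 ± 1.41, 4.48 ± 2.00 and 0.737 ± 0.607 CPM). *Ccdc153*, *Tmem212*, *Sntn*, *Calml4* and *Cdhr4* were at 1 CPM or less there, as were *Mcidas* and *Cdc20b*. In P3 replicate 1 AST_P3_1 had only 93 cells, against 733 and 645 in replicates 2 and 3. The other P3 astroglia were not uniform. In the shallow cells of AST_P3_4 (median 1019 UMIs) *Foxj1* was at 61.4 CPM and the scoring genes at 221 CPM in sum. In AST_P3_1 outside sub-cluster 15 the scoring genes summed to 462 CPM. Sub-clusters 4 and 12 (median 1047 and 985 UMIs) had *Foxj1* at 85.6 and 41.0 CPM and the scoring genes at 304 and 234 CPM. Sub-clusters 3 and 5 had *Foxj1* at 98.3 and 73.6 CPM and the scoring genes at 499 and 374 CPM. In sub-clusters 0, 1, 2, 6, 8, 9 and 11 the scoring genes summed to 19.5 to 32.8 CPM, and in 10 to 52.0 CPM. The paper proposes that sub-clusters 3, 4, 5, 10, 12 and 15 may have come from neighbouring brain regions. The overlap of sub-clusters 3 and 5 with AST_P3_1 was not counted. Whether the levels in AST_P3_1 are those of striatal astrocytes was not tested.

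Together the UMIs of the 70 genes at P3 were spread over many cells. AST_P3_19, which held 1.15% of all UMIs of annotated P3 cells, held 12.0% of the 81244 UMIs of these genes (6.57, 9.80 and 17.9% in replicates 1, 2 and 3). LOW_23 held 11.5% (3.10, 21.9 and 3.77%), the rest of sub-cluster 15 2.14%, and the rest of AST_P3_1 21.1%. Of the UMIs of the 15 scoring genes AST_P3_19 held 26.2% and LOW_23 28.7%. Without P3 replicate 2 LOW_23 held 10.5% of the UMIs of the scoring genes and 3.52% of those of all 70.

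Some members were broad. *Cfap36*, *Cfap20*, *Cfap298*, *Rsph9*, *Cfap100*, *Cfap410* and *Foxj1* had at least 20 CPM on average in P3 astroglia outside AST_P3_19. *Cfap20*, a doublet protein, was at 106 ± 11.4 CPM in P3 astroglia outside AST_P3_1 and sub-cluster 15, at 115 CPM in endothelial cells and 179 CPM in pericytes. *Cfap36* was at 139 ± 11.4 CPM in these astroglia and at 128 CPM in 3m oligodendrocytes. *Cfap298* was at 59.8 ± 5.98 CPM in them and 58.4 CPM in P3 endothelial cells. *Rsph9* and *Cfap100* were more restricted, at 39.6 ± 1.24 and 34.8 ± 5.58 CPM in these astroglia and at 4.11 and 1.10 CPM in P3 endothelial cells. A few others had a place of their own: *Dnah8* was at 8.38 ± 1.42 CPM in these astroglia, 10.9 CPM in glial progenitors, 18.5 CPM in P3 oligodendrocyte precursors and 0.518 ± 0.512 CPM in the rest of AST_P3_1.

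*Foxj1* was also read in cells where most of the other genes were not. In 3m oligodendrocytes it was at 30.01, 34.4 and 29.1 CPM (replicates 1, 2 and 3; 31.2 ± 2.80) and had a UMI in 16.6% of 1731 cells (median 5420 UMIs), while *Rsph1* had none and *Ccdc153* had 1 UMI there. In 3m microglia and endothelial cells it had no UMI. *Rnf157*, which ends 954 bases upstream of *Foxj1* on the same strand, was at 5.67 and 6.09 CPM in the oligodendrocyte clusters ODC_10 and ODC_2, where *Foxj1* was at 32.7 and 30.1 CPM, and at 11.3 CPM in AST_P3_0, where *Foxj1* was at 10.5 CPM. *Dnah14*, which was not seen in AST_P3_19, was at 3.22, 6.03 and 6.64 CPM in 3m oligodendrocytes.

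**Figure D4:**
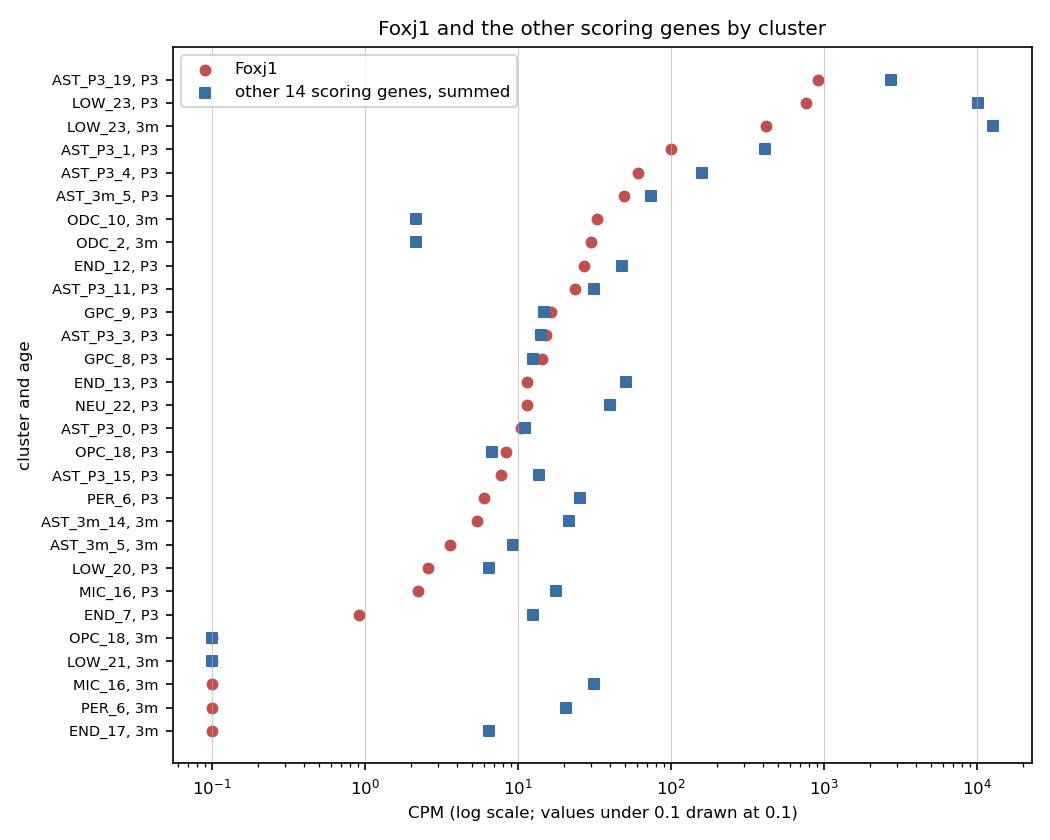
Level of *Foxj1* (red points) and summed level of the other 14 scoring genes (blue squares) in each cluster and age with at least 10 cells (CPM, log scale, values under 0.1 drawn at 0.1), ordered by *Foxj1*. In most clusters the 2 rise together, and in ODC_2 and ODC_10 *Foxj1* stands at 30.1 and 32.7 CPM with the other genes far lower.

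The ages were compared over libraries. Each library's astroglial UMIs were added up and entered edgeR's quasi-likelihood test of 3m over P3. Calls needed padj (p adjusted after Benjamini-Hochberg over all genes tested) no larger than 0.05 and a log2(fold change) of 1 or more in size. Fewer cells of a type and less RNA per cell cannot be told apart in such sums. The sums include P3 sub-clusters 3, 4, 5, 10, 12 and 15 and 3m sub-clusters 13 and 16. The paper found these beside non-telencephalic reference astrocytes and proposes that they may have come from neighbouring brain regions. Its main maturation trajectory left them out, and no fit here left out all of them. Of the 70 genes 44 passed the filter on low counts, and 23 of these were called lower and 2 higher at 3m. Of all 13530 genes tested 32.1% were called (16.3% lower and 15.8% higher). The median log2(fold change) of the 44 was -1.52, against -0.04 for all genes tested. Of the 44, 14 passed the filter on the strength of the P3 libraries alone, no 3m library reaching its limit of 0.827 CPM, and all 14 were among the 23, as genes of that kind had to be lower at 3m. Other cell markers moved in the same sums. All 4 oligodendrocyte markers were called higher (median log2(fold change) 9.68), 3 of 5 precursor markers and all 3 cycling markers lower, and of 3 neuron markers tested 2 higher and 1 lower, and their part in the result was not tested. Leaving out P3 replicate 2 or replicate 3 lowered the calls to 5 lower and 2 higher, of 17 members that then passed the filter.

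*Foxj1* fell, from 18.6, 34.6 and 63.1 CPM at P3 to 5.18, 1.63 and 6.11 CPM at 3m (replicates 1, 2 and 3), a log2(fold change) of -3.05 with an SE of 0.55 (padj = 4.8e-04 by edgeR). *Rsph1* fell from 9.94, 30.6 and 43.3 CPM to 0, 3.25 and 2.04 CPM (-3.61 ± 0.75, padj = 0.0014 by edgeR), and *Cfap126* from 8.06, 18.7 and 23.1 CPM to 1.73, 2.17 and 0.679 CPM (-3.22 ± 0.62, padj = 8.3e-04 by edgeR). The libraries of the ages did not overlap for these 3 genes, and P3 replicate 1 was the lowest of its age in each.

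Several axoneme genes had no UMI in any 3m astroglial sum. Against a floor of 3 UMIs over the 3m group, *Cfap52* was at least 11.3-fold lower at 3m, *Cfap45* at least 10.7-fold, *Cfap299* at least 9.85-fold, *Rsph4a* at least 9.60-fold and *Fam183b* at least 7.85-fold. All 5 belong to the 14 genes that passed the filter through P3 alone, so their calls add nothing to these bounds. *Cfap52* for example had 2.28, 7.45 and 12.5 CPM at P3. *Ccdc153* had 0.672, 2.42 and 3.86 CPM at P3 and none at 3m, and it did not pass the filter.

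Apart from *Foxj1*, the broad members given here changed less. *Cfap100* fell from 40.9, 39.8 and 34.6 CPM to 10.4, 9.76 and 12.9 CPM (-1.62 ± 0.22, padj = 5.2e-05 by edgeR) and *Cfap298* from 84.2 ± 21.7 to 33.7 ± 7.93 CPM (-1.11 ± 0.24, padj = 0.0021). *Cfap20* and *Cfap36* had padj of 0.0024 and 0.0065 by edgeR but log2(fold change) of -0.85 and -0.60, under the limit. *Rsph9* was at 58.3 ± 11.7 CPM and 67.4 ± 2.27 CPM, with padj = 0.098 by edgeR.

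The 2 genes that rose were *Dnah7b*, from 2.28, 2.22 and 2.32 CPM to 17.3, 8.68 and 10.9 CPM (2.57 ± 0.32, padj = 2.7e-05 by edgeR), and *Cfap97d2*, from 7.26, 13.9 and 12.3 CPM to 24.2, 23.3 and 19.7 CPM (1.18 ± 0.28, padj = 0.0035 by edgeR). The libraries of the ages did not overlap for either, but neither was called when the cells summed were limited to those above 1000 genes and below 5% of mitochondrial UMIs (1.60, padj = 0.088 for *Dnah7b* and 1.06, padj = 0.076 for *Cfap97d2* by edgeR). This filter left 12, 137 and 88 astroglial cells at 3m (replicates 1, 2 and 3), with only 50876 UMIs in replicate 1, so low genes could hardly be read there. Without AST_P3_19 both were called under that filter (2.02, padj = 0.035 for *Dnah7b* and 1.13, padj = 0.0498 for *Cfap97d2* by edgeR). *Dnah7a* was at 12.9 ± 3.70 CPM at P3 and 7.22 ± 1.07 CPM at 3m (-0.63 ± 0.34, padj = 0.14 by edgeR), and reads of these 2 close copies may be split in an uncertain way.

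Without the 96 cells of AST_P3_19 35 members passed the filter, of which 11 were called lower and 2 higher, against 16% and 15.9% of the 13469 genes tested (31.9% in all). Of the 11, *Cfap45*, *Cfap52*, *Rsph4a*, *Dnah8* and *Dnah9* reached the filter's limit in no 3m library and could pass it only by being higher at P3. *Foxj1* was then at 13.8, 23.9 and 37.2 CPM at P3 and kept its call (-2.43 ± 0.49, padj = 9.4e-04 by edgeR), as did *Rsph1* (-2.75 ± 0.80, padj = 0.011) and *Cfap126* (-2.83 ± 0.65, padj = 0.0024). *Dnah8* fell from 7.39, 8.53 and 6.29 CPM to 0, 0.542 and 0 CPM, a single UMI at 3m (P3 over 3m 33.5-fold, counting interval 5.99 to 1327; padj = 1.2e-04 by edgeR). *Dnah9* also had 1 UMI at 3m (P3 over 3m 11.7-fold, counting interval 2.08 to 465; padj = 0.040 by edgeR). *Dnah7b* and *Cfap97d2* rose again (2.97 ± 0.34 and 1.25 ± 0.27).

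With AST_P3_1 and sub-cluster 15 left out as well, a choice made after seeing the data, 24 members passed the filter and 4 were called each way, against 16.5% lower and 16.4% higher of the 13189 genes tested, so the share of members called was near that of all genes. *Foxj1* (log2(fold change) -1.65), *Cfap100* (-1.501), *Tekt5* (-1.21) and *Dnah8* (-5.02) were still lower at 3m. How many of the 24 could pass the filter only by being higher at P3 was not determined. *Dnah8* was such a member in the fit above, so its direction here may have been fixed by the filter. *Dnah7b* (3.41), *Cfap97d2* (1.74), *Cfap74* (1.16) and *Tekt1* (1.47) were higher. *Tekt1* had not been called with those cells in, at 4.97, 22.5 and 26.4 CPM at P3 and 1.73, 8.13 and 8.15 CPM at 3m over all astroglia.

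In whole preparations, with the UMIs of all barcodes summed, the comparison rested on 1 library. There 59 members passed the filter, of which 7 were called lower and 2 higher, against 16.1% and 18.4% of the 15407 genes tested (34.5% in all). *Ccdc153* was at 1.52, 25.3 and 5.56 CPM at P3 and at 0, 77.8 and 0 CPM at 3m, *Tmem212* at 0.621, 24.0 and 4.13 CPM and at 0, 94.3 and 0 CPM, and *Rsph1* at 8.60, 36.4 and 33.5 CPM and at 0.285, 34.6 and 0.548 CPM. Replicate 2, the library with the cells of LOW_23, was the highest of its age for these genes at 3m and at P3. Without 3m replicate 2 the count of members called lower was 41 of 64 that passed the filter.

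The 7 genes called lower in whole preparations were *Dnah8*, *Tekt5*, *Cfap100*, *Dnah7a*, *Cfap300*, *Rsph3b* and *Cfap20*. *Tekt5* was at 3.29, 5.27 and 4.49 CPM at P3 and 0.380, 0.980 and 0.366 CPM at 3m (-2.75 ± 0.44, padj = 8.0e-04 by edgeR). *Cfap300*, a dynein assembly factor, was at 4.38 ± 1.91 and 1.54 ± 0.531 CPM (-1.36 ± 0.47, padj = 0.033 by edgeR). The 2 called higher were *Dnah7b* (1.44 ± 0.28, padj = 0.0023 by edgeR) and *Dnah14*, at 0.714, 0.318 and 0.365 CPM at P3 and 2.09, 4.06 and 3.47 CPM at 3m (2.96 ± 0.43, padj = 4.4e-04 by edgeR). *Foxj1* was not called in these sums, at 13.8, 36.2 and 46.4 CPM and 17.5, 31.8 and 17.2 CPM (-0.36 ± 0.42, padj = 0.50 by edgeR), and the libraries overlapped.

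**Figure D5:**
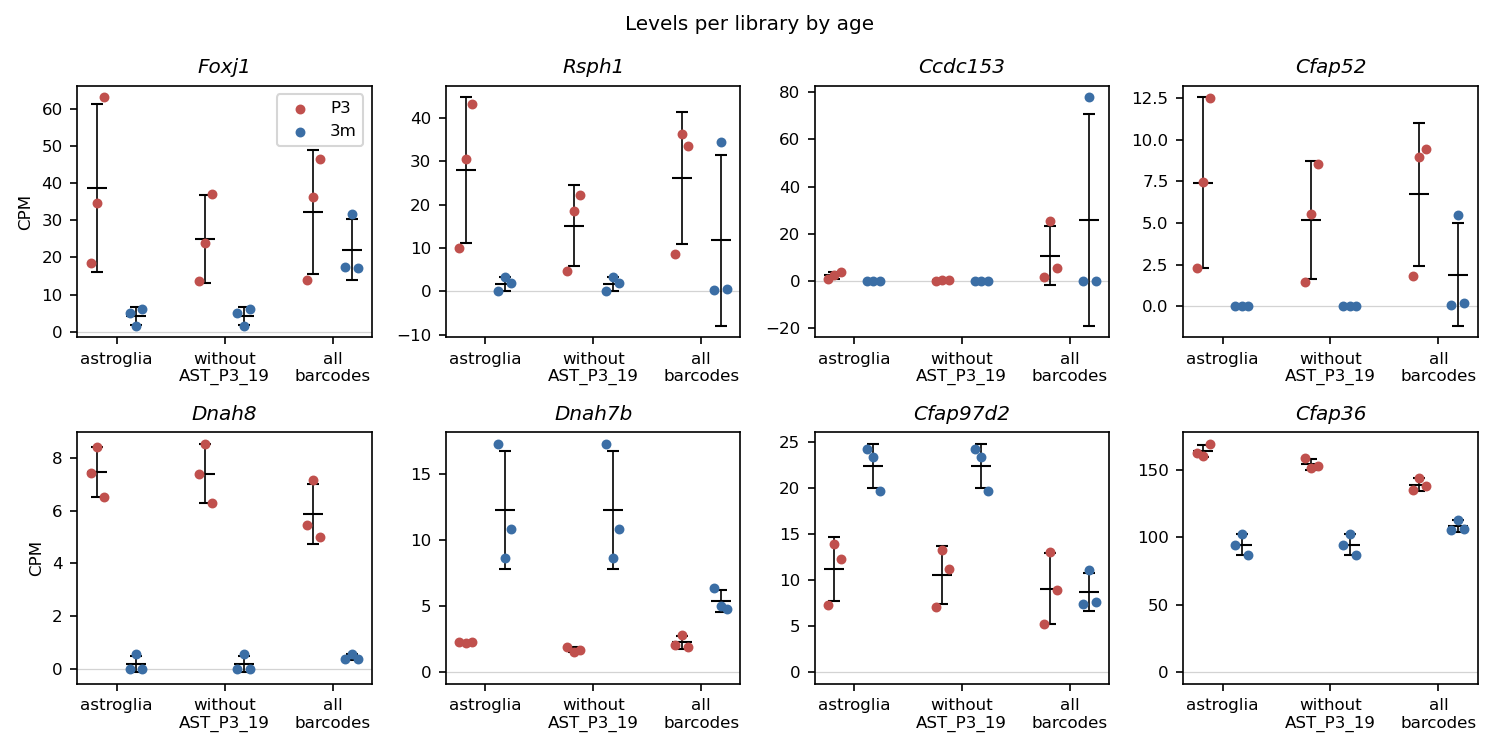
CPM per library for 8 genes at P3 (red) and 3m (blue) in sums over all astroglia, astroglia without AST_P3_19 and all barcodes, with points for replicates 1, 2 and 3 from left to right and bars for the mean and SD (n = 3). *Foxj1*, *Cfap52* and *Dnah8* are lower at 3m in astroglia, *Dnah7b* and *Cfap97d2* higher, and for *Ccdc153* and *Rsph1* 3m replicate 2 alone stands high in the sum of all barcodes.

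Genes outside the symbol rule were compared in the same fits, after the same filter on low counts. How many genes could pass this filter only by being higher at P3 was not determined, in these lists or among all genes tested. The counts called lower may thus include genes whose direction was fixed by the filter, and they are not independent support for the result of the 70 genes. In astroglia 31 of 36 other axoneme genes were tested and 18 were called lower and none higher (median log2(fold change) -2.08), against 16.3% lower and 15.8% higher over all genes tested. Of 11 tested genes for dynein assembly 5 were called lower and 1 higher (median -1.13), and of 18 for multiciliogenesis 7 lower and 1 higher (median -0.80). Of 24 tested genes for intraflagellar transport 1 was called in each direction (median -0.05). Without AST_P3_19, 11 of 28 tested axoneme genes were called lower and none higher. Of 10 tested genes for dynein assembly 2 were called lower and 1 higher, of 17 for multiciliogenesis 5 lower and 1 higher, and of 24 for intraflagellar transport none lower and 2 higher, against 16% lower and 15.9% higher over all genes.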

How the data were processed

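Single-cell RNA-seq libraries of ACSA2-enriched striatal cells, 3 at P3 and 3 at 3m, were analysed. The deposited counts are UMIs per gene and barcode before any filter on cells, which the authors made with Cell Ranger on mm10 and merged without normalization (Seurat 3.1.1 per the labels). Barcodes with more than 500 genes and less than 10% mitochondrial UMIs were kept and clustered by the authors. Their cluster names and astroglial sub-cluster numbers were used, and doublets were not removed. The genes and lists described here, and the rule for the genes named, were chosen with earlier results of these data known. Named were the 8 single genes, the 4 leading genes of each family in AST_P3_19, up to 5 genes called each way by age, members with at least 20 CPM in P3 astroglia outside AST_P3_19 or without a UMI in AST_P3_19, the 4 leading genes of each ciliary list and the regulators and centriole genes of multiciliogenesis. *Cfap161*, *Cfap74*, *Cfap97*, *Rsph3b*, marker genes and *Rnf157* were named after their values were seen.

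UMIs were summed per library, since cells are not replicates. Ages were compared with edgeR 4.0.16 in R 4.3.3 (quasi-likelihood, TMM, filterByExpr, two-sided), which was tested on simulated data, and with DESeq2 1.42.0 as an alternative. The spread between libraries may be partly technical, and p-values measure only that spread. A group without UMIs was given a floor of 3 UMIs over the group. Intervals are exact 95% Poisson or binomial intervals. Per-cell counts were also thinned to 2000 UMIs, leaving out 2420 shallower barcodes at P3 and 998 at 3m. Gene models are GENCODE M21 (GRCm38), and promoter windows are from RefSeq. Replicate numbers were shared between the ages, but the correlation of deviations from the group means was 0.21, 0.10 and 0.04 for the same-numbered libraries in astroglia and 0.48, 0.44 and -0.003 in whole preparations, not over 0.1 for every pair, so the numbers were not taken as pairs. No batch is given in the labels. Alternatives were other scalings, no filter on genes, DESeq2, a replicate block, each library left out, thinning and other cell filters.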

Additional observations from a re-analysis of the deposited data

How the results depend on the processing

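In astroglia the 25 members called (2 higher, 23 lower at 3m) became 7 after thinning every library to the smallest and 8 under the stricter cell filter (over 1000 genes and under 5% mitochondrial UMIs). Leaving out each library gave 7 to 21 calls, the lowest without P3 replicate 2 or 3. Without AST_P3_19 the 13 calls became 24 with no filter on genes, 4 after thinning, 8 under the stricter cell filter and 8 without cluster 1 and sub-cluster 15, and ranged from 6 to 14 with a library left out. There the log2(fold change) of *Tekt1* went from -0.91 (not called) to 1.47 without cluster 1 and sub-cluster 15. In whole preparations the 9 calls became 14 with no filter on genes and 22 with a replicate block, and ranged from 7 to 43 with a library left out. They were 15 without P3 replicate 1 and 43 without 3m replicate 2, where 5 genes turned to called decreases, so that with a library left out the log2(fold change) ranged from -11.07 to 3.09 for *Ccdc153*, -3.59 to 2.49 for *Cdhr4*, -10.59 to 1.47 for *Fam183b*, -1.67 to 0.69 for *Mia* and -10.91 to 3.94 for *Tmem212*. The libraries shared only a number, and the replicate block left the counts within 1.5 times in the other comparisons (28 and 16 calls). P3 replicate 3 correlated best with 3m replicate 2, not with its own number. With no scaling beyond totals the astroglial median over all genes moved on the log2 scale from -0.04 to -0.24, and the split of all calls from 2140 higher and 2204 lower to 1753 and 2790 (without AST_P3_19 from 2137 and 2161 to 1778 and 2696). The share of member UMIs in AST_P3_19 at P3, 12.0%, was 26.2% for the scoring genes alone and 8.76 to 13.7% with a library left out. The 533 barcodes carrying at least 4 scoring genes were 806 at a limit of 3 genes, 247 at 6 and 147 after thinning to 2000 UMIs, and 293 to 533 with a library left out. The 3m astroglial sums (1157485 to 1843998 UMIs) limit what could be seen of low genes. The causes of these shifts were not tested.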

Other observations

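In all 2 barcodes of 3m replicate 2 that the filter on cells had left out carried the scoring genes. One had all 15 of them, 20009 UMIs and 10.4% mitochondrial UMIs, and the other had 4 of them with 774 UMIs from 455 genes. At P3, 4 of 772 barcodes left out by the filter carried at least 4 scoring genes.

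Among the shallow cells of AST_P3_4 (median 1019 UMIs), 983 of 1034 of which came from P3 replicate 3, *Foxj1* was at 61.4 CPM and the 15 scoring genes together at 221 CPM. In END_12, where 346 of 349 cells were from the same library, they were at 26.9 and 74.9 CPM. The deeper endothelial cluster END_7 (median 26510 UMIs) had 0.913 and 13.5 CPM.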
